A study of Arabidopsis thaliana with 12 samples.

Results

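The 5 genes described here encode F-box proteins with kelch repeats that mark enzymes of phenylpropanoid metabolism for breakdown. They are KFB-CHS (probe set AT1G23390_at), KFB01 (AT1G15670_at), KFB20 (AT1G80440_at), KFB39 (AT2G44130_at) and KFB50 (AT3G59940_at), where a probe set's name is its locus followed by _at. RefSeq lists the KFB or KMD names of all but KFB-CHS, which is named here after its known target. The genes were picked by locus, and all 5 were found among the 21428 loci tested, each on a probe set whose values no other locus shares. The choice was made with the dexamethasone-against-mock results of these arrays known, in which AT1G23390 stood among the deepest falls. The response of the 5 genes to dexamethasone is therefore given as a description without p-values. Its limma calls are counted further on, but nothing is read from those counts. Only the change between times under mock treatment is read as a test.

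An F-box protein is the part of an SCF ubiquitin ligase that picks the protein to be ubiquitinated and sent to the proteasome. In the kelch group the F-box holds the adaptor of the ligase, and the kelch repeats bind the target. KFB01, KFB20, KFB39 and KFB50 are known in Arabidopsis to bind phenylalanine ammonia-lyase (PAL), the enzyme that opens the phenylpropanoid pathway to lignin precursors, flavonoids and anthocyanins. KFB-CHS is known to bind chalcone synthase (CHS), which opens the flavonoid branch. The PAL-binding group was also described under the name KISS ME DEADLY, as KMD2, KMD1, KMD3 and KMD4 in the order above, because its members bind type-B response regulators (ARR), the transcription factors of the cytokinin response. These proteins act after translation, so the mRNA of a target need not follow that of its F-box protein.

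The arrays hold RNA of the third leaf from Col-0 seedlings at an age of 9 days. All plants carry 35S::gai-GR, which is expressed under the 35S viral promoter. Its product is gai, a DELLA growth repressor that gibberellin cannot remove, fused to the glucocorticoid receptor domain that holds it outside the nucleus until dexamethasone binds. Groups were mock (DMSO) at 1 h, 5 µM dexamethasone (DEX) at 1 h, mock at 4 h and DEX at 4 h, with 3 Affymetrix ATH1 arrays each, 12 in all, labelled as biological replicates and drawn from 3 independent experiments. Plants lacking the transgene are not analysed here, so an effect of dexamethasone itself and one of gai-GR cannot be told apart. In a bulk leaf sample, fewer cells of a type and less RNA per cell cannot be told apart either.

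Values are RMA log2 levels, in which a difference of 1 is a 2-fold difference, and levels of different probe sets are not read as relative amounts of mRNA. Whether probes of a gene also bind transcripts of its close relatives was not tested. Array medians ran from 7.65 to 7.78 on 11 arrays and stood at 7.48 on mock 4 h replicate 2, whose correlations across genes with the other mock 4 h arrays, 0.987 and 0.988, were below the 0.995 between those arrays. For a number of results at 4 h the value without that array is therefore given as well. The young-leaf genes GRF5 and GIF1 ran from 8.47 to 10.89 and the meristem gene WUS from 5.24 to 5.57, under the lower quartile of every array (5.79 to 5.94). CLV3 ran from 5.63 to 6.26 and STM from 5.94 to 6.81. Of 4 root genes, PYK10, which seedling shoots also express, ran from 12.62 to 12.95, RHD6 from 5.30 to 5.72, WER from 5.79 to 6.82 and COBL9 from 6.69 to 7.35. GRF5 was lower by 0.96 and GIF1 by 0.80 on DEX than in mock at 4 h (adjusted p = 1.78e-05 and 0.000368). WER was the root gene with the largest difference, -0.58 at 1 h (adjusted p = 0.108) and -0.39 at 4 h (0.119), and it passed without mock 4 h replicate 2 (0.0400 and 0.0384). The part of these genes' cells in the results was not tested. The photosynthesis markers chosen, RBCS1A and LHCB1.1, have no probe set in the table.

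KFB-CHS, the gene for the F-box protein of chalcone synthase, was lower on DEX at both times. Its log2 level was 9.66, 9.31 and 9.49 in mock replicates 1 to 3 at 1 h and 8.69, 8.77 and 8.95 on DEX. At 4 h it was 9.48, 9.51 and 9.67 in mock and 8.13, 7.97 and 7.99 on DEX. All DEX arrays lay below all mock arrays of their time, and the 4 h DEX arrays below the 1 h DEX arrays. The log2 difference of DEX from mock was -0.69 (SE 0.11), or 1.61-fold lower, at 1 h and -1.52 (SE 0.11), or 2.88-fold lower, at 4 h. The difference at 4 h was -1.55 without mock 4 h replicate 2. Ordered from the lowest log2 difference upward, KFB-CHS held rank 7 of 21428 loci at 1 h and rank 4 at 4 h. The response at 4 h minus that at 1 h was -0.84 (SE 0.15), with a 95% interval of -1.17 to -0.51.

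KFB01, of the PAL-binding group and also KMD2, was higher on DEX. Its log2 level was 7.85, 7.70 and 7.60 in mock and 8.96, 9.01 and 8.93 on DEX at 1 h. At 4 h the mock arrays read 7.95, 8.40 and 7.78 and the DEX arrays 9.28, 9.00 and 9.01. All 6 DEX arrays lay above all 6 mock arrays, and the highest mock value was that of mock 4 h replicate 2. The log2 difference was 1.25 (SE 0.14), a 2.38-fold higher level, at 1 h, and 1.05 (SE 0.14), 2.08-fold, at 4 h. Without mock 4 h replicate 2 the 4 h difference was 1.23. The gene held rank 30 among the largest positive differences at 1 h and rank 256 at 4 h.

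KFB50, also KMD4, was higher on DEX too. Its arrays read 9.06, 9.00 and 8.93 in mock and 9.91, 9.94 and 9.95 on DEX at 1 h. At 4 h the mock arrays read 9.04, 8.50 and 8.95 and the DEX arrays 9.99, 10.12 and 10.06. DEX and mock did not overlap, and here mock 4 h replicate 2 was the lowest of the mock arrays, not the highest as for KFB01. The log2 difference was 0.93 (SE 0.12), 1.91-fold higher, at 1 h and 1.23 (SE 0.12), 2.34-fold, at 4 h, or 1.06 without mock 4 h replicate 2. The response at 4 h minus that at 1 h was 0.29, with a 95% interval of -0.07 to 0.65, and 0.13 without that array.

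KFB20, also KMD1, was higher on DEX with a wider spread. The mock and DEX arrays read 7.31, 7.29 and 7.20, and 8.09, 8.23 and 8.18, at 1 h, groups that lay apart. At 4 h the mock arrays read 7.16, 7.93 and 7.56 and the DEX arrays 8.28, 8.66 and 7.88. The groups overlapped at 4 h, since mock 4 h replicate 2 lay above DEX 4 h replicate 3. The log2 difference was 0.90 (SE 0.19), 1.87-fold higher, at 1 h and 0.72 (SE 0.19), 1.65-fold, at 4 h, or 0.91 without mock 4 h replicate 2. The spread of KFB20 within groups, an SD of 0.28 pooled over the 4 groups, was larger than that of 95.4% of loci.

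KFB39, also KMD3, overlapped between mock and DEX. It was at 6.90, 6.85 and 6.74 in mock and 6.98, 6.60 and 6.95 on DEX at 1 h. At 4 h it was 6.82, 6.93 and 6.97 in mock and 6.87, 6.70 and 6.77 on DEX. The overlap held at both times. The log2 difference was 0.01 at 1 h, with a 95% interval of -0.22 to 0.24, and -0.13 at 4 h, with an interval of -0.36 to 0.10.

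**Figure D1:**
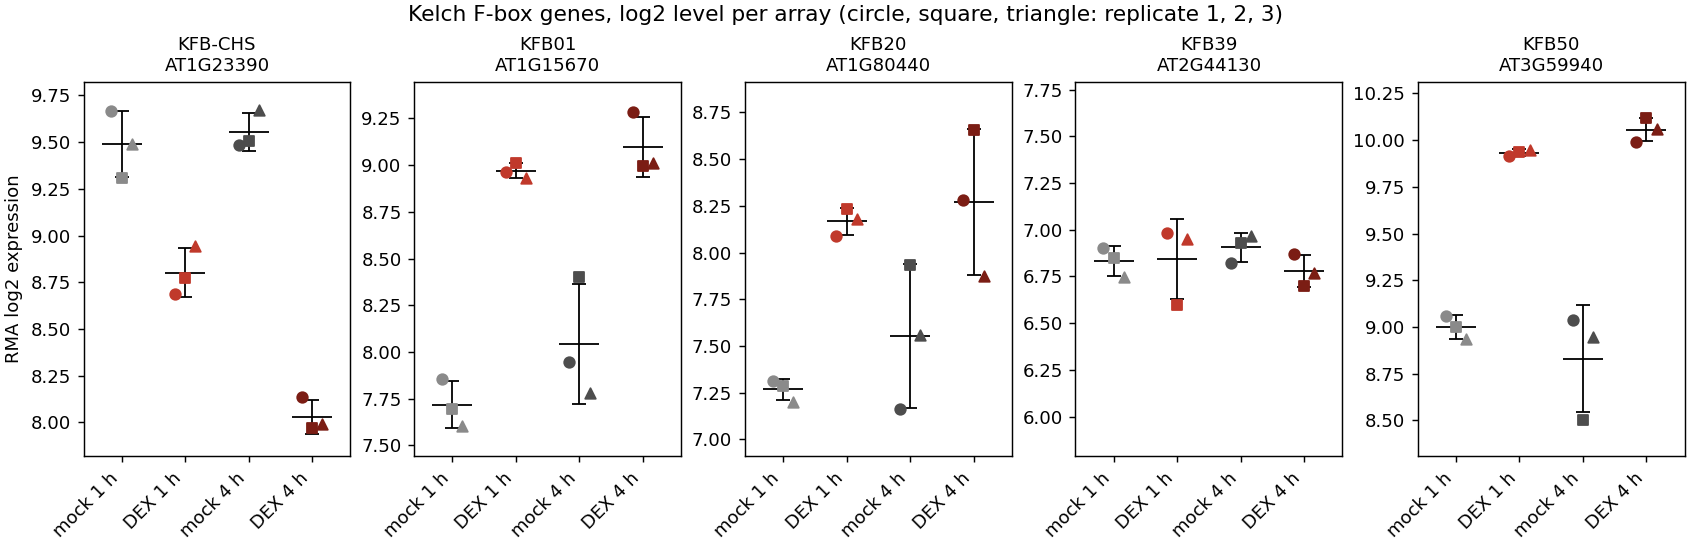
RMA log2 level of each kelch F-box gene (y axis; same span of log2 units in every panel, different position) in mock and DEX arrays at 1 h and 4 h (x axis); points are single arrays, shaped by replicate number, the long bar is the group mean and the whiskers 1 SD (n = 3). KFB-CHS is lower on DEX at both times, KFB01, KFB20 and KFB50 are higher, and KFB39 stays between 6.60 and 6.98.

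Counted by limma with a Benjamini-Hochberg adjusted p under 0.05 over all loci, 3 of the 5 genes were called higher on DEX at 1 h, 1 was called lower and 1 was not called, where 0.714% of all loci were called (0.630% higher and 0.0840% lower). At 4 h the counts were the same, 3 higher, 1 lower and 1 not called, where 7.90% of all loci were called (5.35% higher and 2.55% lower). For the response at 4 h against that at 1 h, KFB-CHS alone was called, lower, where 1.28% of all loci were called (0.313% lower). That call ended when any 1 of the 3 replicate numbers was left out of all groups. Because the choice of genes used these comparisons, nothing is read from these counts. Mock and DEX did not overlap for 4 of the 5 genes at 1 h (13.1% of all loci) and for 3 at 4 h (20.4%). The call of KFB-CHS at 1 h ended without replicate 1 and without replicate 3, and that of KFB50 without replicate 3, each taken out of all groups. The median log2 difference over all loci was -0.00 at 1 h and 0.02 at 4 h. The call of KFB20 ended at 1 h without any single 1 h array, without mock 4 h replicate 3 and without DEX 4 h replicate 1, and at 4 h without any of mock 4 h replicate 1, mock 4 h replicate 3, DEX 4 h replicate 1 and DEX 4 h replicate 2, while over all such exclusions, replicate numbers included, its log2 difference ran between 0.86 and 0.96 at 1 h and between 0.52 and 0.92 at 4 h.

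**Figure D2:**
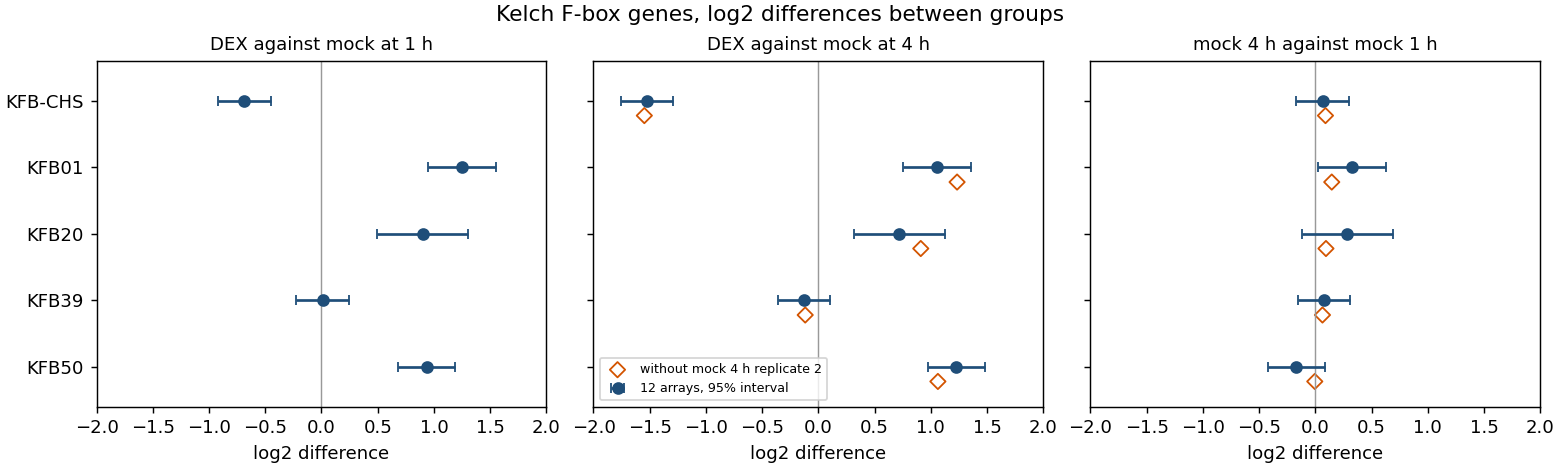
Log2 difference (x axis) of each kelch F-box gene (y axis) for DEX against mock at 1 h, at 4 h, and mock 4 h against mock 1 h; filled circles with bars are the limma estimates with 95% intervals from 12 arrays, and open diamonds the estimates without mock 4 h replicate 2. The DEX difference of KFB-CHS moves from -0.69 at 1 h to -1.52 at 4 h, while KFB01, KFB20 and KFB50 lie on the positive side at both times.

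Time alone was tested under mock treatment. This comparison was taken as apart from the choice of the genes, but its arrays also enter the DEX differences known at that choice. The test is therefore not fully independent of the choice. Of the 5 genes, 0 passed limma between mock 4 h and mock 1 h, 1 had an unadjusted p under 0.05, and 9.29% of all loci were called (3.64% higher and 5.64% lower). KFB01 had the largest difference, 0.33 (SE 0.14, adjusted p = 0.168), and 0.15 without mock 4 h replicate 2. KFB20 differed by 0.29 (adjusted p = 0.382), KFB39 by 0.07 (adjusted p = 0.725), KFB-CHS by 0.07 (adjusted p = 0.761) and KFB50 by -0.17 (adjusted p = 0.419). Without mock 4 h replicate 2 the difference was 0.09 for KFB20 and -0.0048 for KFB50. The 95% intervals ran from -0.17 to 0.30 for KFB-CHS and from 0.03 to 0.63 for KFB01. Under mock treatment the 2 times overlapped for all 5 genes, where 28.9% of all loci did not overlap.

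From 1 h to 4 h on DEX, KFB-CHS differed by -0.77 (SE 0.11). The 3 higher genes differed by 0.13 for KFB01, 0.11 for KFB20 and 0.12 for KFB50 (SE 0.14, 0.19 and 0.12). Ordered by level, KFB-CHS therefore ran from mock 4 h (9.56) and mock 1 h (9.49), which overlap, through DEX 1 h (8.80) to DEX 4 h (8.03). KFB01 ran from DEX 4 h (9.10) and DEX 1 h (8.97), which overlap, to mock 4 h (8.04) and mock 1 h (7.72), which overlap too. The order for KFB50 was DEX 4 h (10.06), DEX 1 h (9.93), mock 1 h (9.00) and mock 4 h (8.83), with no overlap between the DEX groups (39.5% of all loci had none) and overlap between the mock groups.

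Of the genes of the target enzymes, none passed at 1 h, and 3 were higher on DEX than in mock at 4 h. Of PAL1 to PAL4 and CHS, 0 of 5 passed limma at 1 h, with 1, PAL4, at an unadjusted p under 0.05 (log2 difference -0.30, adjusted p = 0.905). The shares over all loci were 0.714% called at 1 h, and 5.35% called higher and 2.55% lower at 4 h. The log2 difference at 1 h was 0.29 for PAL1 (AT2G37040), -0.07 for PAL2 (AT3G53260), 0.07 for PAL3 (AT5G04230) and -0.00 for CHS (AT5G13930). At 4 h PAL1 was higher on DEX than in mock by 2.80 (SE 0.14, adjusted p = 1.6e-08), a 6.97-fold higher level, and PAL2 by 0.75 (SE 0.11, adjusted p = 0.000329). PAL1 and PAL2 are the main isoforms of flavonoid and lignin supply. PAL3 (0.47, adjusted p = 0.105) and PAL4 (AT3G10340; -0.35, adjusted p = 0.135) did not pass. PAL4 passed without mock 4 h replicate 2 (-0.44, adjusted p = 0.04997), while PAL1 then differed by 2.60 and PAL3 by 0.29.

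CHS was higher on DEX than in mock at 4 h by 1.61 (SE 0.19, adjusted p = 7.68e-05), a 3.06-fold higher level, and by 1.31 without mock 4 h replicate 2. The arrays read 11.93, 11.90 and 11.78 in mock and 11.90, 11.72 and 11.99 on DEX at 1 h. At 4 h it was 10.55, 9.64 and 10.57 in mock and 12.02, 11.71 and 11.86 on DEX. The mock arrays fell between the times, while the DEX arrays of both times overlapped. Mock 4 h against mock 1 h gave -1.62 (SE 0.19, adjusted p = 0.000174), and DEX 4 h against DEX 1 h gave -0.00 (95% interval -0.42 to 0.41, adjusted p = 0.991). The comparison of DEX with mock at 4 h and that of mock across times share the mock 4 h arrays, so they are not independent of each other.

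PAL1 changed in both treatments. Its arrays read 9.79, 9.82 and 9.60 in mock and 10.03, 9.99 and 10.07 on DEX at 1 h, and 8.86, 8.33 and 9.02 in mock and 11.58, 11.57 and 11.47 on DEX at 4 h. In mock it fell by 1.00 (SE 0.14, adjusted p = 0.000629) between the times, and on DEX it rose by 1.51 (SE 0.14, adjusted p = 8.13e-06). PAL2 fell by 0.53 in mock (adjusted p = 0.00728), while its rise of 0.29 on DEX did not pass (adjusted p = 0.0679). So at 4 h on DEX the transcripts of PAL1, PAL2 and CHS were higher than in mock, as were those of KFB01, KFB20 and KFB50, while that of KFB-CHS was lower. KFB20 overlapped between mock and DEX at that time, and so did KFB39 (-0.13). PAL3 and PAL4 did not pass, and PAL4 had a negative difference. For CHS the gap went with a fall in mock (-1.62), while the DEX arrays differed by -0.00 between the times.

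**Figure D3:**
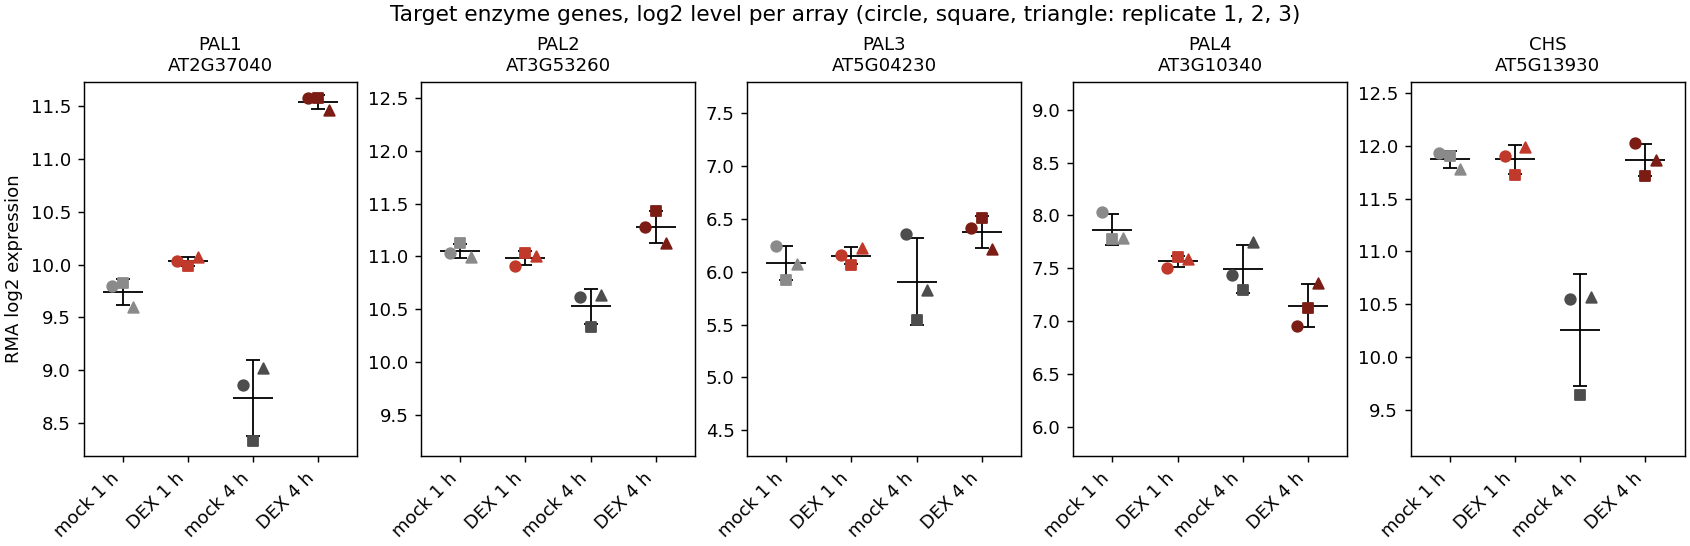
RMA log2 level (y axis; same span of log2 units in every panel, different position) of the genes for the target enzymes PAL1 to PAL4 and CHS in mock and DEX arrays at 1 h and 4 h (x axis); points are single arrays, shaped by replicate number, the long bar is the group mean and the whiskers 1 SD (n = 3). At 1 h mock and DEX overlap for PAL2, PAL3 and CHS. PAL1 then lies higher on DEX (9.99 to 10.07) than in mock (9.60 to 9.82), and PAL4 lower (7.50 to 7.60 against 7.78 to 8.03). Of all loci 13.1% did not overlap at 1 h. At 4 h PAL1, PAL2 and CHS lie higher on DEX than in mock.

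The rest of the pathway was read from lists of its enzymes and regulators. At 1 h, 0 of the 4 entry, 0 of the 5 early flavonoid, 0 of the 6 late anthocyanin and 0 of the 9 lignin branch genes measured passed limma, and 0 of them had an unadjusted p under 0.05. Over all loci 0.714% were called at 1 h. Of 13 regulators measured, only MYB75 (AT1G56650), an activator of anthocyanin genes, was called higher on DEX than in mock at 1 h (log2 difference 1.37, SE 0.25, adjusted p = 0.018). An unadjusted p under 0.05 was found for 2 of the 13. Leaving out a single array ended the MYB75 call at 1 h for 4 arrays, and the largest adjusted p, 0.107, came without mock 1 h replicate 3.

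At 4 h most flavonoid and anthocyanin genes measured were higher on DEX than in mock, the comparison meant by rose and fell at 4 h below. Over all loci 5.35% were called higher and 2.55% lower. On DEX alone, from 1 h to 4 h, the median log2 difference was 1.44 for late anthocyanin and -0.05 for early flavonoid genes. It was -0.03 for entry and -0.44 for lignin branch genes, against -0.02 over all loci. All 6 late anthocyanin genes measured rose (median log2 difference 2.64, and 2.37 without mock 4 h replicate 2, against 0.02 over all loci), among them DFR (AT5G42800, a reductase; 3.37), AT4G14090 (a glucosyltransferase; 2.88), UF3GT (AT5G54060; 2.78) and UGT78D2 (AT5G17050; 2.51), both also glycosyltransferases. Of 5 early flavonoid genes 4 rose and 1 did not pass (median 1.38, and 1.12 without mock 4 h replicate 2): F3'H (AT5G07990; 2.93) and F3H (AT3G51240; 1.66), hydroxylases of the flavonoid ring system, CHIL (AT5G05270; 1.38), listed as chalcone isomerase like, and FLS1 (AT5G08640; 0.74), which makes flavonols. FLS1 lost its call without mock 4 h replicate 2 (adjusted p = 0.0507) and without DEX 4 h replicate 3 (0.104). Of 4 entry genes 2 rose and 2 did not pass: C4H (AT2G30490; 0.92), which hydroxylates cinnamate, and 4CL3 (AT1G65060; 0.70), a coenzyme A ligase of the flavonoid branch.

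Of 9 lignin branch genes, 3 rose and 1 fell at 4 h, and 5 did not pass (median 0.19, and 0.03 without mock 4 h replicate 2). CSE (AT1G52760, an esterase; 0.79), F5H (AT4G36220, a hydroxylase of syringyl lignin; 0.76) and COMT1 (AT5G54160, a methyltransferase; 0.62) rose, and CAD5 (AT4G34230, an alcohol dehydrogenase; -0.48, adjusted p = 0.0204) fell, a call that ended without DEX 4 h replicate 2 (0.0988). Of the 13 regulators, 7 rose and 6 did not pass: MYB75 by 3.89, TT8 (AT4G09820, a bHLH partner of MYB75; 1.87), MYBL2 (AT1G71030, a repressor of anthocyanin genes; 1.84), MYB90 (AT1G66390, a relative of MYB75; 1.46) and HY5 (AT5G11260, a light-signalling bZIP factor; 0.96) were the 5 with the smallest p at 4 h. The count was 6 without mock 4 h replicate 2, when MYB11 lost its call (adjusted p = 0.0586; named after its value was seen).

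Under mock treatment many genes of these lists fell between 1 h and 4 h, where 5.64% of all loci were called lower and 3.64% higher. All 4 entry genes fell: 4CL1 (AT1G51680; -0.93), C4H (-0.76), 4CL3 (-0.55) and 4CL2 (AT3G21240; -0.43), the last named after its value was seen. All 5 early flavonoid genes, 5 of 6 late anthocyanin genes, 7 of 9 lignin branch genes and 2 of 13 regulators, HY5 (-0.90) and MYB90 (-0.73), fell as well. The lignin genes C3'H (AT2G40890; -0.80) and CAD4 (AT3G19450; -0.78) are examples. Leaving out 1 array could end the calls of 4CL3 (largest adjusted p 0.0832, without mock 1 h replicate 1), UF3GT (0.111, without the same array, and 0.0620 without mock 4 h replicate 2) and MYB90 (0.0723, without mock 1 h replicate 3). Of the 6 late anthocyanin genes 4 fell when mock 4 h replicate 2 was left out, and of the regulators 3 then fell and 1 rose.

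**Figure D4:**
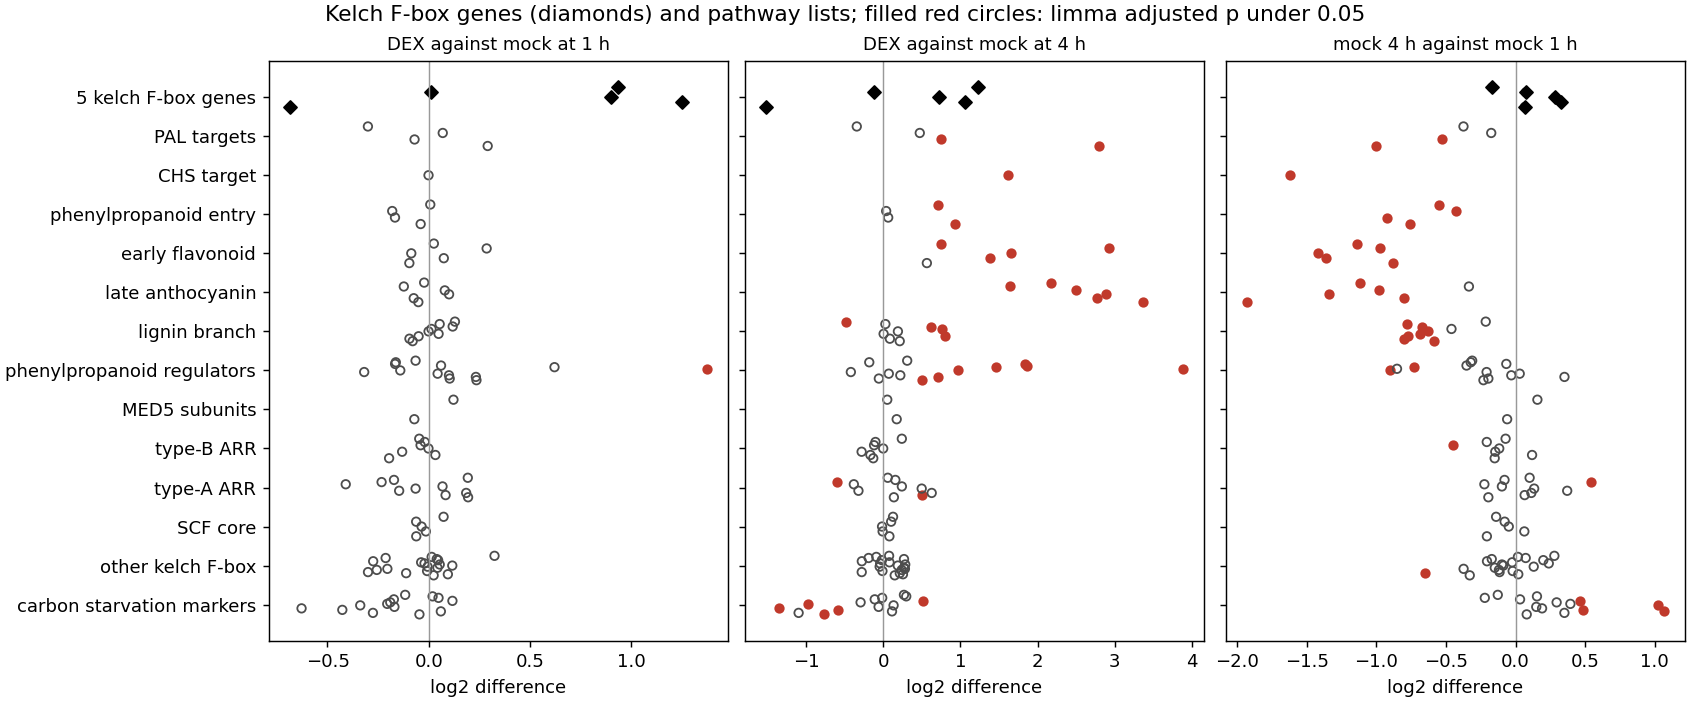
Log2 differences (x axis, a different range in each panel) of the 5 kelch F-box genes (black diamonds, no test shown) and of the genes of each pathway list (circles; y axis) for DEX against mock at 1 h and 4 h and for mock 4 h against mock 1 h; red filled circles passed limma at an adjusted p under 0.05 and open circles did not. At 1 h the diamonds of all kelch F-box genes but KFB39 (0.01) lie away from 0 and 1 list gene is filled, and at 4 h 4 of 5 early flavonoid and 6 of 6 late anthocyanin genes are filled on the positive side.

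Type-B response regulator genes, whose proteins the KMD group binds, did not pass at either time on DEX. Of 7, 0 passed limma at 1 h (0 at an unadjusted p under 0.05) and 0 at 4 h (1 at that level, ARR10). Over all loci 0.714% were called at 1 h and 7.90% at 4 h, so nothing is read from 0 of 7. The log2 differences at 4 h were -0.13 for ARR1 (AT3G16857), -0.17 for ARR2 (AT4G16110), -0.28 for ARR10 (AT4G31920, adjusted p = 0.152), -0.00 for ARR11 (AT1G67710), -0.12 for ARR12 (AT2G25180), -0.10 for ARR14 (AT2G01760) and 0.24 for ARR18 (AT5G58080). In mock ARR12 fell by 0.45 between the times (adjusted p = 0.0223), a call that ended without any of 3 single arrays (largest adjusted p 0.103, without mock 1 h replicate 1).

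Of 10 type-A response regulator genes, which type-B factors switch on and which dampen the cytokinin response, 0 passed at 1 h (2 at an unadjusted p under 0.05). At 4 h ARR4 (AT1G10470) rose by 0.50 (SE 0.11, adjusted p = 0.0115), ARR15 (AT1G74890) fell by 0.60 (SE 0.10, adjusted p = 0.00111) and 8 did not pass (median 0.15). The ARR4 call ended without DEX 4 h replicate 2 (adjusted p = 0.0572). Without mock 4 h replicate 2 ARR6 (AT5G62920), named after its value was seen, also fell on DEX at 4 h (-0.46, adjusted p = 0.0250) and rose in mock between the times (0.51, adjusted p = 0.0145). ARR15 rose in mock by 0.54 (adjusted p = 0.00362) between the times. The shares of all loci called were 0.714% on DEX at 1 h, 7.90% at 4 h and 9.29% in mock between the times.

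The genes listed for other F-box proteins with kelch repeats did not pass on DEX. Of 22 such genes listed, 19 were measured, and 0 passed limma at 1 h (4 at an unadjusted p under 0.05) and 0 at 4 h (5 at that level). Their log2 differences ran from -0.30 to 0.33 at 1 h and from -0.28 to 0.28 at 4 h, with medians of -0.01 and 0.08. Without mock 4 h replicate 2, 1 of them, HWS (AT3G61590, named after its value was seen), fell at 4 h (-0.39, adjusted p = 0.0259). In mock, AFR (AT2G24540), a positive regulator of far-red light signalling, fell by 0.65 (SE 0.11, adjusted p = 0.00267) between the times, and the other 18 did not pass. In that comparison 9.29% of all loci were called. The ligase core also showed no calls on DEX: 0 of 5 genes for the adaptors ASK1 and ASK2, the scaffold CUL1, the RING protein RBX1 and the exchange factor CAND1 passed at either time, with 0 at an unadjusted p under 0.05. The same was found for 2 genes of MED5, the Mediator subunit through which phenylpropanoid genes are known to be repressed (0 passed, and 0 at an unadjusted p under 0.05, at both times). Over all loci 0.714% were called at 1 h and 7.90% at 4 h. Counts of 0 in lists this small are close to those shares, and nothing is read from them.

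The PAL-binding kelch genes are known to respond to carbon supply, so 14 genes known to rise when carbon runs short were read beside them. At 1 h 0 of 14 passed limma (2 at an unadjusted p under 0.05; median -0.17). At 4 h AT2G20670 (-1.35), TPS8 (AT1G70290, of the trehalose phosphate synthase family; -0.97), ASN1 (AT3G47340, an asparagine synthetase; -0.77) and BZIP1 (AT5G49450, a transcription factor of the starvation response; -0.58) fell, TPS10 (AT1G60140; 0.51) rose and 9 did not pass. BZIP1 was named after its value was seen, and the calls of ASN1 and TPS10 ended without DEX 4 h replicate 1 (adjusted p = 0.0714) and DEX 4 h replicate 2 (0.112). In mock, DIN10 (AT5G20250; 1.06), DRM1 (AT1G28330; 1.03), BZIP1 (0.49) and TPS10 (0.46) rose between the times and 10 did not pass, where 3.64% of all loci were called higher and 5.64% lower. The TPS10 call in mock ended without any of 7 single arrays (adjusted p = 0.0806 without mock 4 h replicate 2), and that of DRM1 without mock 1 h replicate 2 (0.0511). KFB01, KFB20 and KFB50 were higher on DEX at both times, while 0 of these 14 markers passed at 1 h. At 4 h 4 fell, 1 rose and 9 did not pass, where 2.55% of all loci were called lower and 5.35% higher. A link to carbon supply was not tested.

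The loci whose log2 values followed each gene most closely were ranked by Pearson's r over the 12 arrays, which share 4 groups, so that any locus with the same group pattern scores high. KFB-CHS was followed by AOP1 (AT4G03070; r = 0.987, log2 difference at 4 h -0.92), AT2G47440 (0.978, -1.29) and MYB3 (AT1G22640; 0.967, -0.80), a MYB factor known to repress phenylpropanoid genes. KFB50 was followed by AT5G19730 (0.981, 1.52), GA3OX1 (AT1G15550; 0.980, 4.13), which forms active gibberellin, and SGR5 (AT2G01940; 0.978, 1.70), a zinc finger factor of shoot gravitropism.

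KFB01 was followed by AT5G14120 (0.965, 1.60), SUC1 (AT1G71880; 0.957, 1.47), a sucrose-proton symporter, and WRKY18 (AT4G31800; 0.950, 2.46), a defence transcription factor. KFB20 was followed by WOX2 (AT5G59340; 0.935, 0.30), NAC014 (AT1G33060; 0.909, 0.30) and again SUC1 (0.901). For KFB39, whose groups hardly differ, the best r was 0.815, with AT1G03350, then 0.809 with AT1G13970 and 0.787 with CAM8 (AT4G14640), a calmodulin-like gene. The number of loci with r above 0.9 was 136 for KFB50, 57 for KFB-CHS, 23 for KFB01, 3 for KFB20 and 0 for KFB39.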

How the data were processed

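RNA of the third leaf was measured on 12 ATH1 arrays, 3 per group. The authors deposited RMA values on a log2 scale, 1 per probe set, as the submitters' processing notes state. RMA corrects background, normalizes arrays to each other and combines a set's probes. Software, version and probe set definition are not given in the sources used here. Of 21492 probe sets, 64 controls were left out. RefSeq (TAIR10.1) lists 21231 of the 21428 loci and served for names only.

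limma 3.58.1 (R 4.3.3) was fitted with a mean for each group on all 12 arrays, with 8 residual and, from the moderation, 5.85 prior degrees of freedom. Tests were two-sided, and Benjamini-Hochberg adjustment over 21428 loci was applied with a threshold of 0.05. The fit was also run on simulated data with independent normal noise. Those data hold no outlying array and no shared experiment, so nothing is read from them about the calls here. The number of arrays limits the precision: the median SE of a log2 difference was 0.12.

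The 5 genes, the lists, the tests and the settings were chosen with earlier results of these data known. The text names the 5 genes, PAL1 to PAL4, CHS and the type-B ARR genes. From every other list it names passing genes by smallest p, at most 4 for DEX at 4 h, 2 for DEX at 1 h and 2 for mock across times, and then the 3 loci most like each of the 5 genes. Settings tried were the replicate number as a block, fits to the arrays of 1 comparison, renewed quantile normalization, median centring, a minimum mean log2 of 5, a variance trend with robust fitting, and exclusion of each array or replicate number. Promoter motifs were not counted and no sequences are shown. Figures were drawn with matplotlib 3.10.9.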

Additional observations from a re-analysis of the deposited data

Results flagged for a closer look

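Of 43 genes named from the target and pathway lists, 16 had a DEX response at 4 h that differed from that at 1 h by limma's test of the difference, 15 with a larger value at 4 h and 1, TPS8, with a smaller value (-0.77, adjusted p = 0.035). Over all loci 1.28% were called in this test. Apart from the target and type-B ARR genes, the 43 were named for small p-values in comparisons that share arrays with this test. Nothing is therefore read from the 16 of 43 beside that share. The 5 kelch F-box genes were chosen on their response and are not among the 16. No explanation was tested.

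Among the target enzymes the difference of responses was 2.51 for PAL1 (SE 0.20, adjusted p = 2.09e-05), 0.82 for PAL2 (adjusted p = 0.0131) and 1.61 for CHS (adjusted p = 0.00804). It was 0.96 for C4H (adjusted p = 0.0095), 2.64 for F3'H, 1.75 for F3H and 1.31 for CHIL (adjusted p = 7.41e-05, 0.00162 and 0.0155). Of the late anthocyanin genes, DFR differed by 3.42, UF3GT by 2.85, AT4G14090 by 2.78 and UGT78D2 by 2.43, with adjusted p of at most 0.000655. Of the regulators, MYB75 differed by 2.51, MYBL2 by 2.01, TT8 by 1.80 and HY5 by 1.105, with adjusted p of at most 0.00351.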

How the results depend on the processing

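Median centring moved the median of all loci at 4 h from 0.02 to -0.09, and log2 differences at 4 h with it. No named result that passed changed its sign under any alternative run. With renewed quantile normalization or median centring, KFB20 lost its call at both times (3 of the 5 genes called, against 4), and with only the arrays of the comparison 3 were called at 4 h. Leaving out arrays or replicate numbers gave 1 to 4 calls among the 5 genes at 1 h (1 without replicate 3) and 0 or 1 for the difference of responses. KFB-CHS then ran from -0.78 to -0.54 at 1 h and from -1.07 to -0.69 for the difference of responses. KFB39 ran from -0.086 to 0.14 at 1 h and from -0.26 to -0.0065 for the difference. KFB01 ran from 0.91 to 1.28 at 4 h and from -0.41 to 0.065 for the difference, and KFB50 from 1.03 to 1.36 and from 0.10 to 0.40. Calls among the 99 pathway genes ran from 0 to 1 at 1 h (2 with only the arrays of the comparison), from 14 to 34 for mock across times and from 5 to 19 for the difference of responses, both lowest counts without replicate 1. With all arrays 28 fell and 5 rose in mock, and over the same 99 genes the response was larger at 4 h for 17 and smaller for 1. The shares of all loci called were 9.29% in mock and 1.28% for the difference of responses. Fewer arrays enter the fits with exclusions. With the replicate block 4 of the 5 genes were called at both times and 36 pathway genes at 4 h, against 27 up and 6 down without it. Whether a number marks a shared experiment is not stated in the labels, and the arrays were not treated as pairs: 3 of 18 same-numbered pairs had correlated deviations above 0.1 (range -0.10 to 0.19), although 7 of 12 arrays correlated best with their own number, a hint from the data and not from the design. Of 28 named calls at 4 h, 5 ended when 1 array was left out, and of 26 for mock across times, 6. When a replicate number was left out of all groups, 9 of the 28 and 15 of the 26 ended. Detection calls were not used here, so signal over background was not judged.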
